A study of Mus musculus with 3 samples.

Results

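The endothelial markers were 10 genes whose transcripts mark the cells that line blood vessels, namely Pecam1, Cdh5, Esam, Cldn5, Emcn, Kdr, Flt1, Tek, Tie1 and Vwf. They were found as the probes that carry these gene names on Agilent mouse arrays, and 17 probes of these 10 genes stood among the 37324 genes read. Gene expression was measured on 1 array each of SVC (stromal vascular cells), SPA (small proliferative adipocytes) and MA (mature adipocytes), so no difference has a replicate check, no p-value is given, and precision is limited by having 3 arrays in all. The source was epididymal fat of male C57/BL mice, 20 weeks old by the sample labels, digested with collagenase. A brief spin at 9 g for 1 sec left SVC in the lower phase, and a longer spin of the floating cells at 226 g for 3 min gave SPA as the sediment and MA as the floating layer. SVC and SPA were grown in DMEM to 90% confluency before RNA was taken, whereas no culture is described for MA, and the MA sample carries another date in its title. Fraction, culture and date therefore cannot be told apart between MA and either cultured sample. The fractions were parted by buoyancy and not by a surface marker, and the labels do not say how many animals went into each.

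Endothelial cells form the inner wall of vessels, and white fat is densely supplied with capillaries that deliver lipids and hormones to adipocytes. Neighbouring endothelial cells are joined by VE-cadherin and by tight junction proteins such as claudin-5. They respond to VEGF through the receptors encoded by Kdr and Flt1 and to angiopoietins through the receptor encoded by Tek, and they store von Willebrand factor in granules. In a digest of fat, endothelial cells belong to the stromal vascular fraction by the usual definition.

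The level of a gene is given as log2 of its processed signal over the 75th percentile of its array, so a level of 0 equals that percentile. The levels serve to compare 1 gene between arrays and not 1 gene with another, because probes differ in how brightly they report. Each array held 59305 spots that were not controls, of which 58.6% to 61.4% were well above background, and probes spotted 10 times had a median SD of 0.04 to 0.05 in log2 within an array. All 10 markers were well above background on all 3 arrays, and none of their spots was saturated or had an outlying local background. The error that the scanner software assigned to the spots read for the markers was 10% to 20.0% of the signal in SVC, 10% to 12.3% in SPA and 10% in MA. It covers the spot and not the spread between cultures or animals. The detection floor of an array is the lowest signal that the software marked as well above background there, and a gene that did not pass on 1 array of a pair is given as at least N-fold different.

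The markers were higher in MA than in either cultured sample, and the differences between SPA and SVC were smaller. Of the 10 genes, 9 were at least 5-fold higher in MA than in SPA, with Vwf as the exception at 1.94-fold, while 5.47% of the 24101 genes well above background on 1 or both of these arrays were at least 5-fold higher. None of the 10 was at least 5-fold lower in MA than in SPA, against 3.97% of all these genes. The median log2 ratio of MA over SPA was 3.61 over the markers and -0.08 over all genes measured on both arrays. Between MA and SVC all 10 were at least 5-fold higher in MA, where 5.72% of 23596 genes were higher and 3.96% lower by as much, and the median log2 ratio was 4.02 over the markers and -0.07 over all measured genes. The call of Vwf over SVC, at 5.49-fold, held at 1 of its 3 probes. In bulk RNA a larger number of endothelial cells and more RNA of these genes per cell cannot be told apart.

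**Figure D1:**
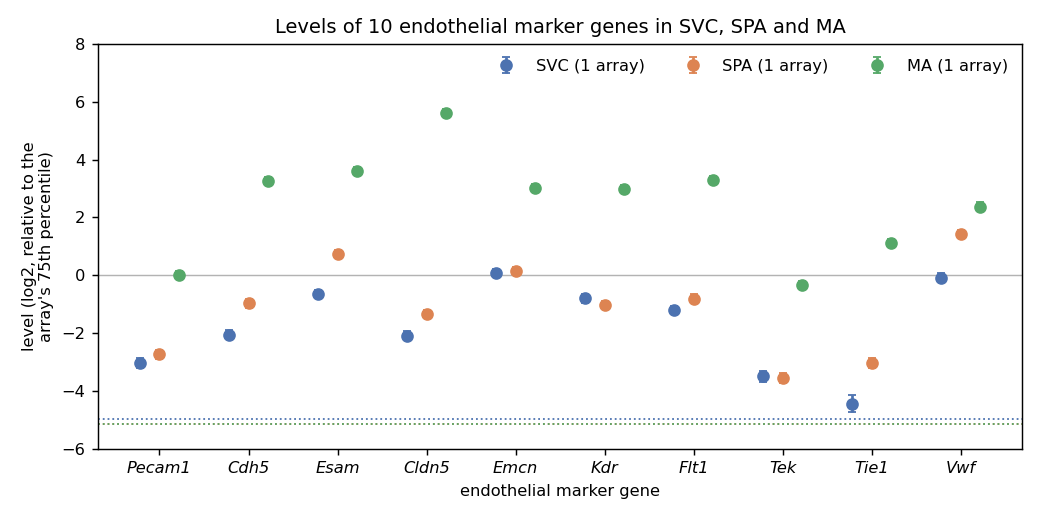
Level of each endothelial marker (vertical axis, log2, with 0 at the 75th percentile of each array) on the SVC, SPA and MA arrays, 1 point per array, with bars for the spot error of the scanner software and dotted lines for the detection floor of each array. For every gene the MA point is the highest, and the SPA point lies nearest to it in Vwf, 1.94-fold lower.

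Between SPA and SVC, 0 of the 10 markers passed 5-fold in either direction, a count that says little about them because 0.32% of 22808 genes passed upward and 0.351% downward. Of the 10, 8 were higher in SPA and 2 lower at the brightest probe, and the median log2 ratio was 0.57 against 0.05 over all measured genes. The count depends on the probe for Flt1, which is among the 8 but had -0.59 as the median over its probes. Cdh5, Esam, Tie1 and Vwf were over 2-fold higher in SPA, and these 4 lay above the 95th percentile of all measured genes, a log2 ratio of 0.81. Their ratios were 2.11, 2.60, 2.65 and 2.82, and 2.56%, 1.27%, 1.16% and 0.97% of genes had higher ones. The other 6 differed by less than 2-fold. The differences of Emcn and Tek were smaller than the combined error of their spots, and the other 8 were larger than it. The ratios of the markers ran from 0.856 to 2.82 for SPA over SVC, from 1.94 to 122 for MA over SPA and from 5.49 to 207 for MA over SVC. The last of these comparisons shares its arrays with the others and adds no separate measurement.

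**Figure D2:**
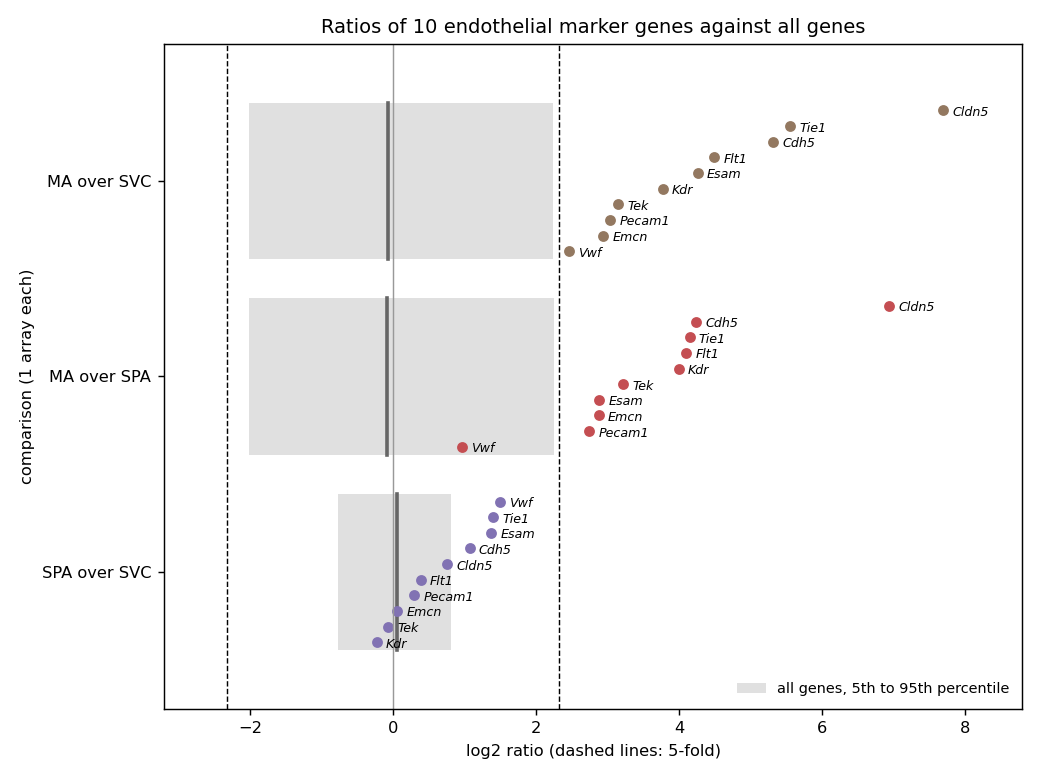
Log2 ratio (horizontal axis) of each endothelial marker in the 3 comparisons, with grey boxes for the 5th to 95th percentile of all genes measured on both arrays, a dark line for their median and dashed lines at 5-fold. In both comparisons with MA the markers lie to the right of the grey box except Vwf in MA over SPA, at 0.96.

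Among the junction and adhesion genes, Pecam1 encodes an adhesion molecule (CD31) of the contacts between endothelial cells and is also carried by platelets and leukocytes. Its signal was 52.8 in SVC, 66.2 in SPA and 369 in MA, read at a probe for transcript NM_001032378 on chromosome 11 from 106540864 to 106540923 (mm9, minus strand). Scaled to the arrays, Pecam1 was 6.70-fold higher in MA than in SPA and 8.23-fold higher than in SVC, while SPA and SVC differed by 1.23-fold. The cultured samples were thus close to each other and MA stood apart.

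Cdh5 encodes VE-cadherin, the adherens junction protein of endothelium. It had signals of 104 in SVC, 223 in SPA and 3518 in MA at a probe for NM_009868 on chromosome 8 from 106668159 to 106668218 (plus strand). The gene stepped up at both comparisons, by 2.11-fold from SVC to SPA and by 18.9-fold from SPA to MA, and MA was 39.8-fold above SVC.

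Esam, an immunoglobulin-like adhesion molecule of endothelial tight junctions and platelets, gave signals of 275, 728 and 4480 in SVC, SPA and MA (NM_027102, chromosome 9 from 37345795 to 37345854, plus strand). Its log2 ratio was 1.38 for SPA over SVC, and MA was 7.38-fold above SPA. Emcn, which encodes the sialomucin endomucin of capillary and venous endothelium, gave 456, 484 and 2970 (NM_016885, chromosome 3 from 137093811 to 137093870, plus strand). Emcn differed by only 1.04-fold between SPA and SVC and was 7.36-fold higher in MA than in SPA, so the steps from SPA to MA of Esam and Emcn were alike in size and those from SVC to SPA were not.

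Cldn5 encodes claudin-5, the main claudin of endothelial tight junctions. Its signal was 101 in SVC, 175 in SPA and 17780 in MA at a probe for NM_013805 on chromosome 16 from 18778046 to 18778105 (plus strand). This was the largest difference of the 10 genes, 122-fold between MA and SPA and 207-fold between MA and SVC. Of the 20777 genes measured well above background in both MA and SPA, 33 had a higher ratio than Cldn5.

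Among the receptors, Kdr encodes VEGFR2, the main signalling receptor for VEGF-A, and Flt1 encodes VEGFR1, which binds VEGF-A, VEGF-B and placental growth factor. Kdr had signals of 247 in SVC, 216 in SPA and 2880 in MA at a probe for NM_010612 on chromosome 5 from 76329309 to 76329368 (minus strand). It was 16.0-fold higher in MA than in SPA, and SPA lay slightly below SVC at 0.856 of its scaled signal. The other 2 probes named Kdr, which belong to other transcript records 24.1 kb and 28.3 kb away, were not well above background on any array.

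Flt1 had signals of 188, 251 and 3599 in SVC, SPA and MA at its brightest probe (NM_010228, chromosome 5 from 148373791 to 148373850, minus strand), which made MA 17.2-fold higher than SPA and SPA 1.31-fold higher than SVC. Of its 4 probes, 2 belong to the transcript record ENSMUST00000110529 and lie 75.1 kb and 76.9 kb from the brightest one, on its 5' side. At these probes MA was 28.1-fold and 32.5-fold higher than SPA, but SPA was at 0.662 and 0.381 of SVC. All Flt1 probes thus put MA above SPA, whereas the direction between SPA and SVC depended on the probe. The remaining probe (AK005502) was well above background in MA alone, at least 1.65-fold above SPA.

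Tek encodes TIE2, the receptor of the angiopoietins, and Tie1 its partner receptor, which has no well established ligand of its own. Tek had low signals of 38.3 in SVC and 37.3 in SPA and 289 in MA (NM_013690, chromosome 4 from 94540861 to 94540919, plus strand). The cultured samples were level, at a ratio of 0.955, and MA was 9.31-fold higher than SPA. Tie1 had the largest spot error of the markers in SVC, 20.0%, with a signal of 19.9 where the detection floor of the array was 13.9. It gave 53.8 in SPA and 795 in MA (NM_011587, chromosome 4 from 118144132 to 118144191, minus strand), so SPA was 2.65-fold above SVC and MA 17.7-fold above SPA. Tie1 had log2 ratios of 0.47 for SPA over SVC, 3.08 for MA over SPA and 3.55 for MA over SVC after normexp background correction.

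Vwf encodes von Willebrand factor, the clotting protein stored in endothelial granules and also found in platelets. It had signals of 407 in SVC, 1173 in SPA and 1899 in MA at its brightest probe (NM_011708, chromosome 6 from 125636551 to 125636610, plus strand). Vwf thus had the largest step from SVC to SPA of the 10 genes, at 2.82-fold, and the smallest from SPA to MA, at 1.94-fold, and 15.0% of all genes measured on both arrays had a higher ratio of MA over SPA. Its 3 probes disagreed about MA. At the probe of ENSMUST00000112253, 94.4 kb to the 5' side, the signals were 33.3, 119 and 24.6 in SVC, SPA and MA, so SPA was again 3.51-fold above SVC but MA was at 0.248 of SPA. At the probe of ENSMUST00000139678, 50.0 kb to the 5' side, they were 25.0, 37.5 and 19.5, with MA at 0.624 of SPA. All 3 probes placed SPA above SVC, and only the brightest placed MA above SPA.

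**Figure D3:**
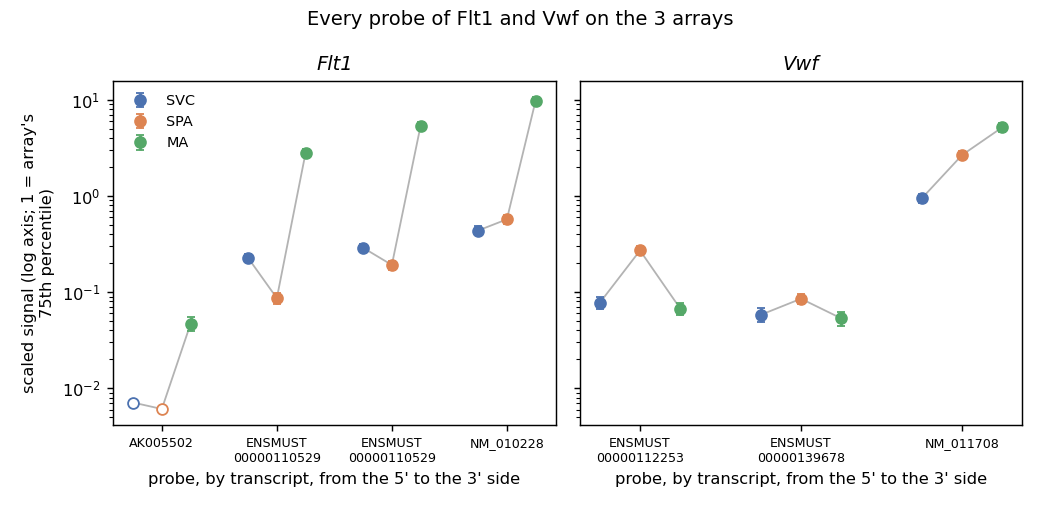
Signal scaled to the 75th percentile of the array (vertical axis, log scale) at each probe of Flt1 and Vwf, ordered from the 5' to the 3' side of the gene, on the SVC, SPA and MA arrays, with spot errors as bars and open points where the probe was not well above background. Every Flt1 probe is highest in MA, while the Vwf probes other than NM_011708 are highest in SPA.

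The promoters of 6 of the 10 genes (Emcn, Tek, Tie1, Kdr, Flt1 and Cldn5) were found in a RefSeq table of the GRCm38.p6 build, and the 250 bases before the start were searched on both strands. ETS factors, such as those encoded by Erg and Fli1, bind a core of GGAA in many endothelial promoters, so the letters AGGAAG and CGGAAG, which differ only in the first base, so that no position counts for both, were searched. Either of them occurred in 3 of the 6 genes and in 39.2% of 32851 promoters of this length, with AGGAAG in 29.5% and CGGAAG in 13.6%. The 3 promoters that hold them are shown, with the matches in capitals (CTTCCT is AGGAAG on the other strand), together with that of Cldn5, the gene with the largest ratio, which holds neither. They stand at chr3:137340828-137341077 (Emcn, plus strand), chr4:118489850-118490099 (Tie1, minus strand), chr5:147726012-147726261 (Flt1, minus strand) and chr16:18776597-18776846 (Cldn5, plus strand), each written 5' to 3' along its gene.
Emcn: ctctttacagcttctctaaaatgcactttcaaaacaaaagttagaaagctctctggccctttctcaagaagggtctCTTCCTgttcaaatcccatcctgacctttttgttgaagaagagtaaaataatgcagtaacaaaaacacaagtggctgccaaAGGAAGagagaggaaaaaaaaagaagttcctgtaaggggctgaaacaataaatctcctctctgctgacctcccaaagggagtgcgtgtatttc
Tie1: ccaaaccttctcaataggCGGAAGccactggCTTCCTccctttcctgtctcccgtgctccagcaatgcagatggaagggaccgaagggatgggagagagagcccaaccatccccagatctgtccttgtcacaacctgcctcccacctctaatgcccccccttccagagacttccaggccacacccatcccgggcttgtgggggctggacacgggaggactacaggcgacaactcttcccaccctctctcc
Flt1: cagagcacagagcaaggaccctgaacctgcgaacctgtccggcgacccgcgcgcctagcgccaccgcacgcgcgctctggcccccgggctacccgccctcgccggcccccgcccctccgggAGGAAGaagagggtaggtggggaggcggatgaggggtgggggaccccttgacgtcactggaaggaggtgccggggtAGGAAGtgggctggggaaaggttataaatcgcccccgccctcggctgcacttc
Cldn5: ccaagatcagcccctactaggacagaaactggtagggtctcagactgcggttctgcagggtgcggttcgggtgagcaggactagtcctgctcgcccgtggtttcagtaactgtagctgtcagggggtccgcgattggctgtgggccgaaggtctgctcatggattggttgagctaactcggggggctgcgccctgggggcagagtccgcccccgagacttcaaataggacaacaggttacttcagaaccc
Emcn, Tie1 and Flt1 hold 2 matches each. A match is a string of letters and not a known site, and genes with and without one are given side by side. Cldn5, Kdr and Tek without a match were 122-fold, 16.0-fold and 9.31-fold higher in MA than in SPA. Tie1, Flt1 and Emcn with 2 matches each were 17.7-fold, 17.2-fold and 7.36-fold higher. TATAAA, the letters of the TATA box, occurred in Flt1 alone of the 6 and in 12.4% of all promoters.

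The lists of other vessel genes were set beside the markers by the same rule, with lower bounds entering the medians at the bound. Of 37 further endothelial genes read, 27 were at least 5-fold higher in MA than in SPA and 0 lower, with a median log2 ratio of 3.16. The largest ratios among those measured on both arrays were in Gpihbp1, which anchors lipoprotein lipase on the capillary wall, at 7.06 in log2, in Apold1 at 6.99 and in Aqp1, a water channel, at 6.47. Apold1 lay near the detection floor in SPA, at a level of -4.53 where the floor was -5.14, and was not well above background in SVC. Nos3, the endothelial nitric oxide synthase, and Robo4 had log2 ratios of 5.09 and 5.53, both named after seeing their values. Procr and Calcrl, the receptors for protein C and for adrenomedullin, lay in the other direction at -1.87 and -1.13, under 5-fold, and Eng had 0.01 and 1.64 at its 2 probes. Another 4 genes, Adgrl4, Podxl, Sele and Clec14a, were well above background in MA alone, by at least 30.0-fold, 7.54-fold, 6.60-fold and 4.30-fold over SPA, and were likewise named after seeing their values. Between SPA and SVC none of the 37 passed 5-fold, and the median was 0.42. That count says little, because 0.32% of all genes passed upward and 0.351% downward.

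Of 13 endothelial transcription factors, 7 were at least 5-fold higher in MA than in SPA (4 with the normexp background correction) and 0 lower, with a median log2 ratio of 2.33. Sox7, a SOXF factor, was 46.7-fold higher, Erg, the ETS factor most typical of endothelium, 18.6-fold and Sox17 15.6-fold, though the probes of Sox17 ran from -0.93 to 3.97 in log2. Fli1 and Ets1, ETS factors that leukocytes also express, had lower ratios of 2.11-fold and 2.86-fold. The probes of Ets1 ran from 1.52 to 2.57 in log2, so the highest passed 5-fold. Gata2, Hhex and Elk3 had log2 ratios of -0.94, -0.72 and -0.65. Of 12 Notch, ephrin and connexin genes of vessels, 5 were at least 5-fold higher in MA and 0 lower. Among them were Notch4 at 13.0-fold, Hey1, a Notch target, at 7.74-fold and the connexin gene Gja4 with a log2 ratio of 2.81, and the arterial ligand Dll4 was not well above background in either culture and at least 22.5-fold higher in MA. Nr2f2 and Ephb4, which mark veins, had ratios of 1.10-fold and 1.31-fold. Efnb2, which marks arteries, was at 0.955 of SPA, and Hey2 was not well above background on any array. Dll4, Nr2f2 and Ephb4 were named after seeing their values, and no contrast between arteries and veins is read from these genes.

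The genes that bind to or act on the markers had lower median ratios of MA over SPA than the markers did. Their counts past 5-fold say little, because the lists are short and 5.47% of all genes passed upward and 3.97% downward. Of 8 VEGF and angiopoietin ligands, which come mostly from other cells, 1 was at least 5-fold higher in MA and 0 lower, with a median log2 ratio of 0.70. That gene was Angpt1, the activating ligand of TIE2, at 8.28-fold, and this call was not made when spots of outlying local background were left out. Vegfa was 2.17-fold and Vegfb 2.86-fold higher, Pgf 3.29-fold, and Angpt2, which endothelial cells themselves make, 1.22-fold. The other 3 ligands were lower in MA, with Angpt4, a further ligand of TIE2, at 0.273, Vegfd at 0.672 and Vegfc at 0.765 of SPA. Of 6 co-receptors and regulators, Ptprb alone passed 5-fold. It encodes VE-PTP, the phosphatase that acts on TIE2 and VE-cadherin, and was 66.6-fold higher in MA than in SPA, with log2 ratios of 2.23 and 6.06 at its 2 probes. Nrp1 and Nrp2, the neuropilins that assist the VEGF receptors and that many stromal cells carry, were at 0.88 and 1.44 of their SPA signal at the brightest probe, with log2 ratios from -1.53 to 0.16 and from -1.83 to 0.53 over their probes.

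Of 13 junction partners, which are shared with other cell types, 1 was at least 5-fold higher in MA than in SPA and 0 lower by as much. These counts say little beside the 5.47% of all genes that passed upward and the 3.97% that passed downward. The median log2 ratio was -0.13. Of the catenins that bind VE-cadherin directly or through each other, Ctnnb1 was at 0.74, Ctnnd1 at 0.57 and Ctnna1 at 0.90 of SPA. Jup, encoding the catenin plakoglobin, was 6.09-fold higher, a call lost with the normexp background correction. F11r and Tjp1 were 4.37-fold and 3.25-fold higher, and of the 12 partners with a ratio 5 lay above 1 and 7 below. VE-cadherin itself, read as Cdh5, was 18.9-fold higher.

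**Figure D4:**
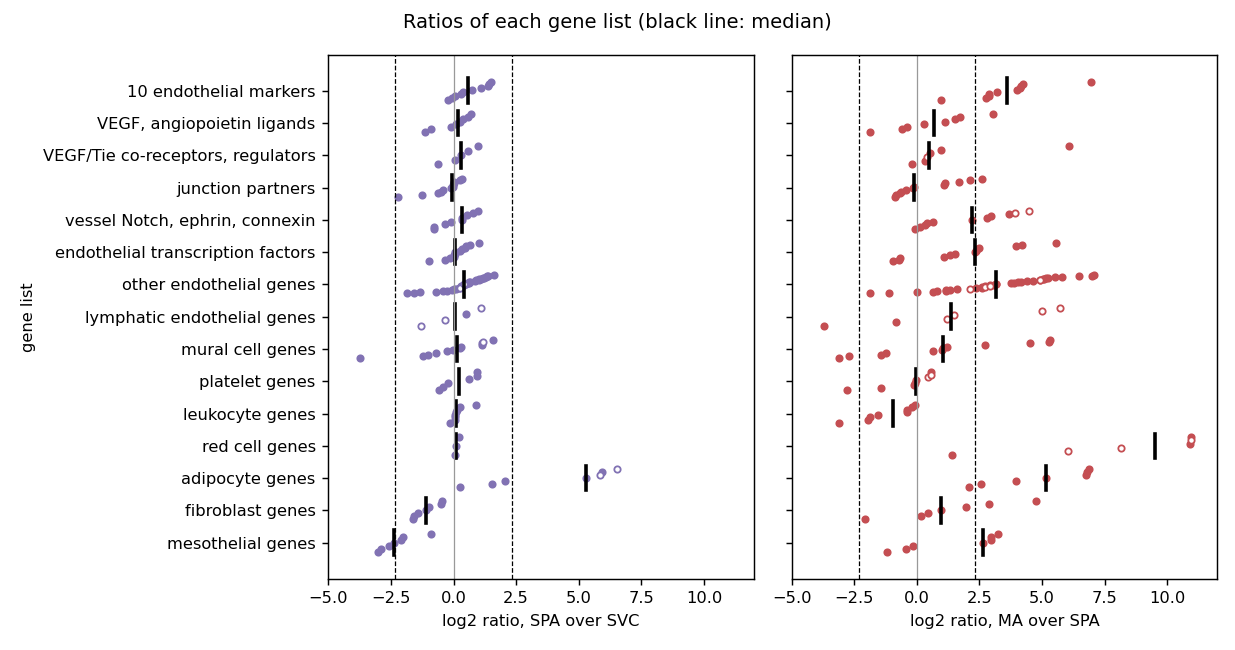
Log2 ratios (horizontal axes) of SPA over SVC and of MA over SPA for every gene of each list, 1 point per gene, filled where both arrays measured it well above background and open where the value is a lower bound, with a black line at the median and dashed lines at 5-fold. The medians of the endothelial markers and of the other endothelial genes are 0.57 and 0.42 for SPA over SVC and 3.61 and 3.16 for MA over SPA.

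Genes of other cell types also differed between MA and the cultures, and their part in the result was not tested. Of 7 red cell genes 5 were at least 5-fold higher in MA than in SPA, and their summed scaled level was 0.396 in SVC, 0.431 in SPA and 719 in MA. Hba-a2, an alpha-globin gene, was 1991-fold higher, and Hbb-bt, Hbb-b1 and Alas2 were not well above background in either culture. The summed scaled level of the 10 endothelial markers over the same arrays was 4.39, 7.76 and 105, and Cldn5 alone gave 48.6 of it in MA. Such sums follow the brightest probes and serve to compare arrays, not lists.

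Platelets carry Pecam1, Esam and Vwf, and the part of platelet RNA in these signals was not tested. Of 9 platelet genes, 0 were at least 5-fold higher in MA than in SPA and 1 was lower. These counts say little because 5.47% of all genes passed upward and 3.97% downward. The summed level was 35.6 in SVC, 28.9 in SPA and 24.3 in MA, but most of it is Pf4, so it follows 1 gene. Pf4, a platelet chemokine, was at 0.93 of SPA, and Gp1ba was not well above background on any array. Gp9 and Itga2b were so only in MA, at least 1.49-fold and 1.37-fold above SPA. Of 9 leukocyte genes 0 were higher and 1 lower in MA, to be read beside the same shares, and the sum was 558, 622 and 191. Cd79a, a B cell gene, was not well above background on any array.

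Among 12 mural cell genes, which mark the pericytes and smooth muscle around vessels, 4 were at least 5-fold higher in MA and 2 lower. The pericyte genes Rgs5, Kcnj8 and Abcc9 had log2 ratios of 5.33, 5.29 and 4.52, but Pdgfrb, also a pericyte gene, had -1.42. The contractile genes Tagln and Acta2 had -3.10 and -2.70, but Myh11, also contractile, had 1.06. The summed level was 759 in SVC, 368 in SPA and 129 in MA, but in both cultures most of it is Tagln and Acta2. Gene by gene, 8 of the 12 were higher in MA than in SPA and 4 lower, with a median log2 ratio of 1.03. Of 6 lymphatic endothelial genes 2 were at least 5-fold higher in MA than in SPA and 1 lower by as much. The sum, which Pdpn dominates, was 45.0, 63.6 and 7.50. Lyve1 and Ccl21a, genes of lymphatic vessels, were not well above background in either culture and at least 31.9-fold and 52.6-fold higher in MA, whereas Pdpn, which fibroblasts also express, had a log2 ratio of -3.69. Prox1 and Mmrn1, of the same list, were well above background in SVC and MA but not in SPA. Their brightest probes put MA only 1.14-fold and 1.79-fold above SVC.

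The adipocyte genes, which check the label of MA, were also highest in MA but differed between SPA and SVC as well. Of 7 adipocyte genes 4 passed 5-fold upward between SVC and SPA and 6 between SPA and MA, with median log2 ratios of 5.27 and 5.14, and their summed level was 3.51, 23.5 and 1538. The endothelial markers had medians of 0.57 and 3.61 in the same comparisons. Of 7 fibroblast genes 2 were at least 5-fold higher and 0 lower in MA than in SPA, but the probes of Col3a1 ran from -2.26 to 2.87 in log2, and the median over probes gave 1 higher and 1 lower. The sum was 539, 249 and 563. Of 7 mesothelial genes 4 were at least 5-fold higher in MA than in SPA and 0 lower, and these 4 were also at least 5-fold lower in SPA than in SVC (1 gene with the normexp background correction). The sum over all 7 was 64.1, 16.6 and 25.4.

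**Figure D5:**
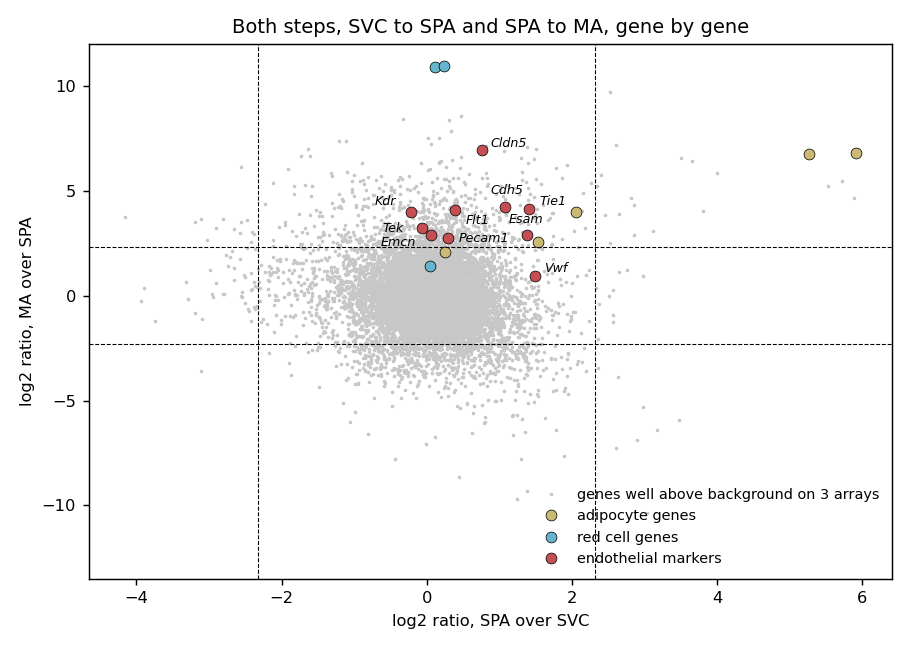
Log2 ratio of SPA over SVC (horizontal axis) and of MA over SPA (vertical axis) for each gene well above background on all 3 arrays, with the endothelial markers, adipocyte genes and red cell genes coloured and dashed lines at 5-fold. Both axes share the SPA array, so no relation between them is read, and 9 of the 10 markers lie above the upper line and all lie between the vertical lines.

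Outside these lists, the genes most like the markers were sought among 19835 genes well above background on all 3 arrays, by the distance of their ratios for SPA over SVC and for MA over SPA from the markers' medians of 0.57 and 3.61. The 10 nearest were Vmn1r48, Tspan12, Rai2, 1190005I06Rik, Rtn4rl1, Tst, Sorl1, Scn7a, Rnf144a and Aqp7, at distances of 0.06 to 0.20 in log2. The markers themselves lay 0.53 to 1.08 from that centre, apart from Vwf at 2.81 and Cldn5 at 3.33, so Flt1 lay nearest to it.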

How the data were processed

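Gene expression was measured with 1 Agilent 1-colour array each of SVC, SPA and MA, grouped by their labels. The authors deposited, for each spot, an intensity from Agilent Feature Extraction 10.7.3.1, background-subtracted and detrended, together with the raw and local background intensity. The deposited value table holds that signal divided by a single number for each array, a ratio that holds to a relative 1.37e-06. The intensity was scaled to the array's 75th percentile over spots that are not controls (430 in SVC, 439 in SPA and 366 in MA) and taken to log2. Outlier spots were left out (75, 98 and 129), spots of a probe were averaged, and, of several probes, the one with the highest mean level stood for the gene. A probe not well above background has only a bound, the higher of its own level and the detection floor, which is the lowest level that Feature Extraction marked as well above background on the array (-4.95, -5.14 and -5.15), and ratios to it are written as at least N-fold. A gene was called at 5-fold, the threshold of the study, provided that the brighter of the pair of signals was well above background. No test was run with 1 array per group.

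The members and gene lists were chosen with earlier results of these data known. All members are named, and of each other list at most 3 genes per direction with the largest ratio measured on both arrays, the genes that act on a member, and those said to have been picked afterwards. Of 155 listed genes 153 were read. A result that is withheld is not reported here. Names follow RefSeq (GRCm38.p6) where the accession of a probe matched (32994 of 56605 probes, 1535 renamed), and probe positions come from the annotation of the arrays (mm9). Whether a probe lies in an exon or an untranslated region was not assigned here. Simulated data with known fold changes were used to test how ratios are read. The 9 alternatives were normexp with an offset of 50, quantile normalization, another percentile base, the deposited ratios, dim probes left unfiltered, probes measured on both arrays alone, the median probe, the probe with the largest ratio, and no spots of outlying local background. Normexp was run in limma 3.58.1 (R 4.3.3), and all else in Python 3.11.15 with numpy 2.4.6, pandas 2.3.3 and matplotlib 3.10.9.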

Additional observations from a re-analysis of the deposited data

How the results depend on the processing

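Under the 9 alternative settings, the counts of endothelial markers and of other endothelial genes past 5-fold stayed within 1.5 times the reported count, and the medians of the markers kept their direction. The markers at least 5-fold higher in MA numbered 7 to 9 against SPA and 7 to 10 against SVC, and their median log2 ratios ran from 2.91 to 3.68 and from 3.52 to 4.05. The lowest counts came with the normexp background correction, under which Pecam1 and Tek had log2 ratios of 2.02 and 2.07 over SPA and 2.16 and 2.07 over SVC, and Vwf 2.25 over SVC, all under 5-fold. Tie1 moved with it as well, to 0.47 for SPA over SVC, 3.08 for MA over SPA and 3.55 for MA over SVC, and Cdh5 and Cldn5 to 4.58 and 7.04 over SVC. As the median over probes, Vwf turned to -0.12 for MA over SVC and to -0.68 for MA over SPA, and Flt1 to -0.59 for SPA over SVC. The other endothelial genes higher in MA than in SPA numbered 23 to 28. The probe with the largest ratio gave Flt1 5.02 for MA over SPA. Among the shorter lists, 27 counts moved, either by more than 1.5 times or to or from 0. With normexp these included the vessel Notch, ephrin and connexin genes (3 instead of 5) and the transcription factors (4 instead of 7). With probes measured on both arrays alone, a setting that leaves out every lower bound, they included the red cell genes (2 instead of 5) and lymphatic genes (0 instead of 2). With 1 array per group, no replicate could be left out, and the spread between cultures or animals is unknown. No paired analysis was possible because each group holds 1 sample and no test was run. Signal over background limits Tie1 in SVC and Tek in both cultures most.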
